A study of Homo sapiens with 8 samples.

Results

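An alternative 3′ splice site event is an intron whose donor is joined to either of 2 acceptors, so that the exon begins at an upstream or at a downstream position. The events described here are those whose acceptors lay 4 to 50 nt apart, taken as the length of the long exon form minus that of the short exon form. In whole cells 1934 of 4916 listed events fell in this range (39.3%), over 1844 pairs of sites and 1484 genes. In the cytoplasm 1368 of 3498 did (39.1%), over 1341 pairs and 1134 genes. The 2 tables shared 1235 of these events and held 2067 between them. The measurement was the inclusion level, the length-corrected share of reads from the long form, which is made with the upstream site. The reads are junction reads and on-target reads, so a read that lies on the stretch between the sites also counts for the long form. A level of 1 therefore means that all reads counted for the long form, and a level of 0 that all counted for the short form. Use of a site, below, refers to this level. The part of unspliced RNA in the levels was not tested.

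The cells were U2OS, an established human osteosarcoma line, transfected for 48 h with 20 nM of EGFP siRNA, the control, or of CHERP siRNA#2. RNA came from whole cells or from the cytoplasm, the supernatant of a detergent lysis, and stranded mRNA libraries were sequenced. Each of the 4 groups (EGFP and CHERP siRNA, whole cells and cytoplasm) had 2 biological replicates, 8 libraries in all. All groups share the 1 cell line and the siRNA transfection, and the CHERP groups rest on a single siRNA sequence.

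At the end of an intron the U2AF heterodimer reads the polypyrimidine tract and the AG, and U2 snRNP with its SF3B proteins binds the branch point upstream of them. Splicing usually joins an AG at a limited distance past the branch point, and a second AG nearby can compete for the same step. CHERP is a nuclear RS-domain protein that associates with U2 snRNP. A distance that is a multiple of 3 keeps the reading frame, whereas any other distance shifts it in a coding exon.

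Whole-cell libraries gave 1235612 to 1483802 reads over all alternative 3′ splice site events and cytoplasmic libraries 278805 to 344686. The events 4 to 50 nt apart had a median of 52.75 reads per library in whole cells and 23.38 in the cytoplasm. In the CHERP gene itself the listed events held 103 and 77 reads in the EGFP whole-cell libraries and 3 and 10 in the CHERP ones, and 31 and 21 against 3 and 4 in the cytoplasm. VIM, FN1 and CD44, mesenchymal genes of this line, were read in all 8 libraries, and no event was listed for EPCAM, KRT19, PTPRC, CD3E, PECAM1 or GFAP. None was listed for the mesenchymal genes SPARC and COL1A2 either, so a gene without a listed event is not shown to be absent. In whole cells CD44 went from 6337 and 8036 reads to 19586 and 18330, and RUNX2, an osteoblast factor, from 16 and 18 to 0 and 3. CDH1 had 1 read in each EGFP whole-cell library and 22 and 15 in the CHERP ones, and the part of these differences in the results was not tested.

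The sequences below belong to some of the changes with CHERP siRNA described later. Each runs 5′ to 3′ from 20 bases before the upstream site to 3 bases past the downstream site (GRCh37, the same coordinates as hg19), and the capitals mark the last 2 intronic bases of either form. The first 4 events gained use of the upstream site in CHERP-depleted cells, and the last 3 lost it.
NUSAP1, chr15:41643166-41643233, plus strand: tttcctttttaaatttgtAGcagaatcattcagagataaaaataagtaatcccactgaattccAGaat
CEP76, chr18:12699162-12699222, minus strand: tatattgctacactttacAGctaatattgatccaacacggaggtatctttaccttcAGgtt
PON2, chr7:95041053-95041111, minus strand: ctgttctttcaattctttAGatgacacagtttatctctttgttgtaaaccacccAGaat
DNAJC21, chr5:34945807-34945868, plus strand: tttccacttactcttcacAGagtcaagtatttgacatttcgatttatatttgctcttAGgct
ARL6IP4, chr12:123466098-123466144, plus strand: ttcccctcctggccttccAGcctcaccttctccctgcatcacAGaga
SLC25A39, chr17:42399894-42399940, minus strand: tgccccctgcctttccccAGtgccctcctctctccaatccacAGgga
SFTA1P, chr10:10828696-10828738, minus strand: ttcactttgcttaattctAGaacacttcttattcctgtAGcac

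The distances were not spread evenly. In whole cells 120 events were 4 nt apart, 103 were 5 nt and 68 were 6 nt apart, whereas 7, 8, 10 and 11 nt held 19 to 22 events each. A second rise came between 15 and 24 nt, with 80 events at 18 nt and 85 at 21 nt. Multiples of 3 made up 813 of the 1934 events (42%), and 610 of 1368 in the cytoplasm (44.6%).

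**Figure D1:**
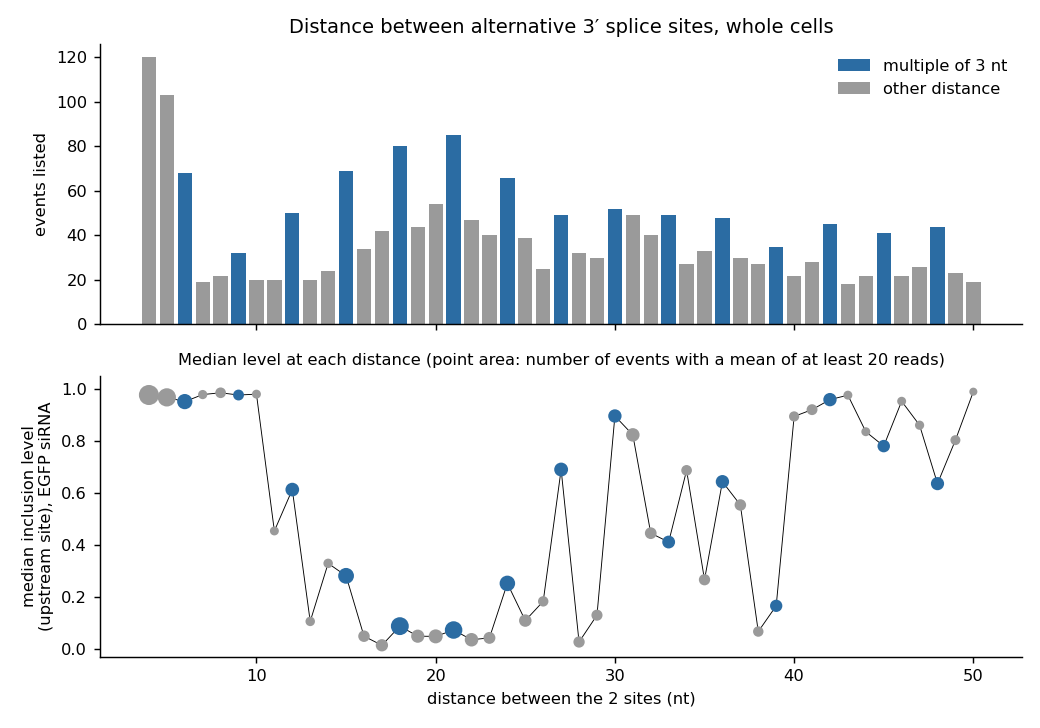
Number of whole-cell events (upper panel) and median EGFP siRNA inclusion level (lower panel, 0 to 1, upstream site) at each distance from 4 to 50 nt, with multiples of 3 nt in blue and point area for the number of events averaging 20 reads or more. Events crowd at 4 and 5 nt and at multiples of 3, and the median level falls from 0.9779 at 4 nt to 0.0143 at 17 nt and lies at 0.9601 at 42 nt.

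The share of frame-keeping distances depended on where the stretch between the sites lay. It was 44.9% of 1507 events in coding sequence, 29.3% of 157 in 5′ untranslated sequence, 16.9% of 59 in 3′ untranslated sequence and 34.9% of 189 in noncoding transcripts. The short class of 4 to 6 nt held the fewest, 23.4% of 291. Of 694 frame-keeping coding pairs with a known phase, 52 (7.49%) carried a stop codon in the stretch. Places are those of the GENCODE release used here, which listed 98.9% of the upstream and 99.3% of the downstream sites. Place was read from transcripts with an internal exon that starts at the upstream site, with coding taken first where transcripts differed.

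Both sites ended in AG in 1926 of 1970 pairs (97.8%). Among 115 pairs 4 nt apart whose stretch was read and whose sites both end in AG, the extra bases of the long form were gcAG in 25, gaAG in 20, acAG in 18 and ccAG in 15. At 5 nt the commonest stretch was agcAG, in 12 of 94 pairs. A further AG between the sites was rare at short range, in 6.51% of pairs 4 to 6 nt apart and 16.4% at 13 to 24 nt, and was found in 65.7% at 25 to 50 nt. The stretch itself was 33.2% pyrimidine on average at 4 to 6 nt, 64.7% at 13 to 24 nt and 58.7% at 25 to 50 nt.

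Site strength was scored as the sum over 20 intronic and 3 exonic bases of log2(base frequency at 77420 3′ sites flanking the study's listed cassette exons, divided by 0.25). Those reference sites had a median of 9.59 bits (quartiles 7.04 and 12). Both members of a close pair scored lower, with medians of 5.93 for the upstream and 5.83 for the downstream site. At 4 to 6 nt the upstream site had the higher median (7.6 against 4.53 bits), and at 13 to 24 nt the downstream one did (6.78 against 4.88). For sites over 50 nt apart the medians were 7.86 and 6.58.

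In control cells most close pairs used nearly 1 site. Among the 1376 whole-cell events that averaged 20 reads or more and had a level in every library, 563 (40.9%) had a mean EGFP level of 0.9 or above, 499 (36.3%) had 0.1 or below, and 314 (22.8%) lay between. The median was 0.686 (quartiles 0.0282 and 0.98), with medians of 0.672 and 0.702 in the 2 EGFP libraries. The 732 cytoplasmic events gave 42.9%, 36.3% and 20.8%, with a median of 0.698.

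The site used changed with distance. Pairs 4 to 6 nt apart spliced to the upstream AG, with a median level of 0.972 (n = 200 events). Pairs 7 to 12 nt apart did so too, at 0.948 (n = 117). At 13 to 24 nt the downstream AG took most reads, with a median of 0.0661 (n = 441), and 54.9% of these events had a level of 0.1 or below. At 25 to 50 nt the median was 0.694 (n = 618), with wide quartiles of 0.027 and 0.977. The cytoplasm gave 0.979, 0.934, 0.0677 and 0.759 for the same classes. The 2 whole-cell EGFP libraries gave medians of 0.974 and 0.969 at 4 to 6 nt and of 0.0758 and 0.0684 at 13 to 24 nt. These are descriptions over events, which are not replicates.

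**Figure D2:**
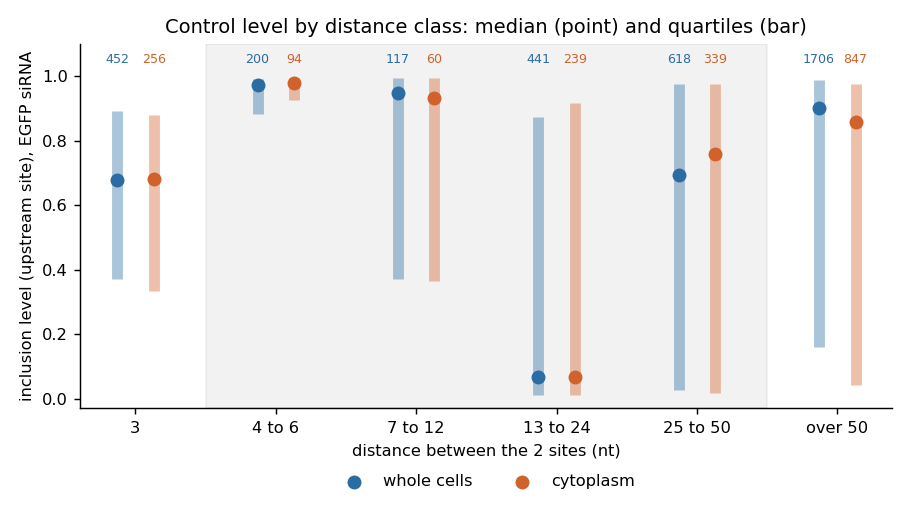
EGFP siRNA inclusion level (vertical axis, upstream site, 0 to 1) by distance between the sites in nt, with the median as a point, the quartiles as a bar and the number of events above, in whole cells (blue) and cytoplasm (orange). The shaded classes are the events described. The medians for 13 to 24 nt, 0.0661 and 0.0677, lie far below those of the other classes.

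The edges of the range differed in kind. Just outside the lower edge, sites 3 nt apart had a median of 0.679 in whole cells and 68.1% lay between 0.1 and 0.9 (n = 452). Just inside it, sites 4 nt apart had a median of 0.978 and 12.9% between (n = 85). At the upper edge, events 48 to 50 nt apart had a median of 0.836 (n = 60) and those 51 to 53 nt apart 0.817 (n = 77).

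The level moved with the score difference between the sites. Where the downstream site scored over 6 bits lower, the median level was 0.977 (n = 185), and where it scored over 6 bits higher the median was 0.0203 (n = 228). With scores within 2 bits of each other it was 0.699 (n = 328), and 30.5% of those events lay between 0.1 and 0.9. Across the 1376 events Spearman's rho between level and score difference was -0.57. It was -0.47 for 452 events 3 nt apart, -0.14 for 1706 events over 50 nt apart and -0.37 over all 3546 events. By distance class it was -0.27 at 4 to 6 nt, -0.47 at 7 to 12 nt, -0.57 at 13 to 24 nt and -0.49 at 25 to 50 nt. The events share libraries and depth, some share a site, and the rho is a description.

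**Figure D3:**
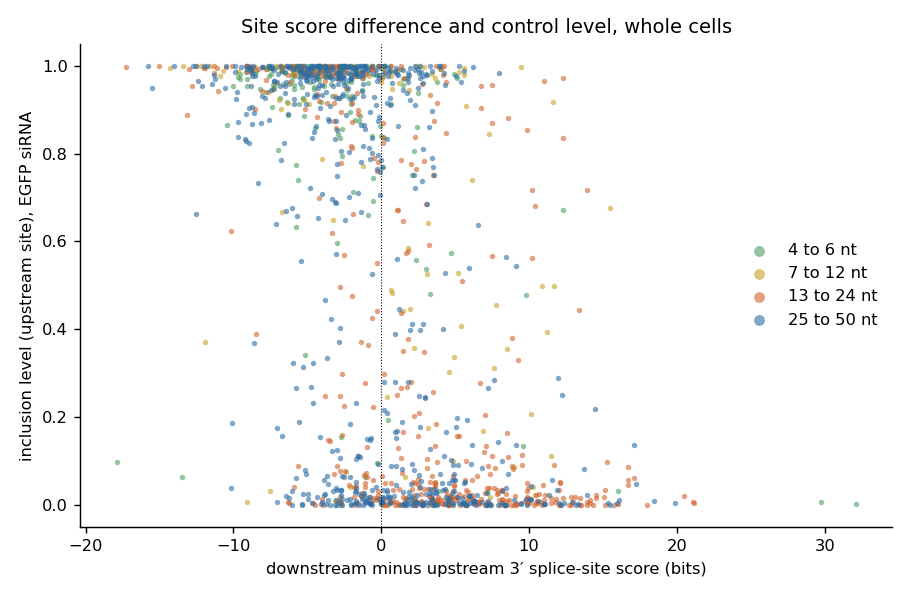
Whole-cell EGFP siRNA inclusion level (vertical axis, 0 to 1) against the downstream minus the upstream 3′ splice-site score in bits, 1 point an event averaging 20 reads or more, coloured by distance class. Points gather near 1 where the upstream site scores higher and near 0 where the downstream site does, with Spearman's rho at -0.57.

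Reading frame and place went with the level as well. Place was read only from transcripts that use the upstream site, so the label and the level are not independent. The part of this labelling in the levels was not tested. In coding sequence the events that shift the frame had a median of 0.933, and 16.6% of 620 lay between 0.1 and 0.9. Those that keep it had a median of 0.686, and 29% of 520 lay between. Outside coding sequence the whole-cell medians were 0.153 in 5′ untranslated sequence (n = 89), 0.0181 in 3′ untranslated sequence (n = 33) and 0.0309 in noncoding transcripts (n = 99). The cytoplasm gave 0.425 (n = 42), 0.0178 (n = 17) and 0.0146 (n = 38), so the medians of the last 2 places were low in both fractions. The fractions hold different sets of events. In 5′ untranslated sequence the quartiles were 0.0125 and 0.775 in whole cells and 0.0192 and 0.73 in the cytoplasm.

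Among events with a mean EGFP level of 0.2 to 0.8, those with the most reads were in SERBP1, PCBP2, SFTA1P, TGFBI, PRAME and COPS2. The 18 nt event of SERBP1, an mRNA-binding protein, had levels of 0.518 and 0.504 in the EGFP and 0.484 and 0.499 in the CHERP whole-cell libraries. The 12 nt event of PCBP2, a poly(C)-binding protein, had 0.452 and 0.442 against 0.451 and 0.427, and its upstream site ends in TG rather than AG. Neither passed the test of the siRNAs described later (FDR 0.872 and 0.923). The groups were apart by a small margin in SERBP1 and overlapped in PCBP2. TGFBI, a secreted matrix protein, had 0.22 and 0.247 against 0.27 and 0.3 at its 41 nt event. COPS2, a COP9 signalosome subunit, had 0.302 and 0.392 against 0.399 and 0.376 at its 21 nt event. PRAME, a tumour antigen, had 0.762 and 0.767 against 0.774 and 0.773. Of the 6, SFTA1P alone passed the test.

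Across close pairs the level differed slightly more between libraries of different siRNA than between the CHERP libraries, and about as much as between the EGFP libraries. In whole cells the median absolute difference between libraries of different siRNA was 0.0166 to 0.0171 over 1376 events, while it was 0.0169 between the 2 EGFP libraries and 0.0141 between the 2 CHERP ones. Single libraries of different siRNA differed by more than 0.1 in 146 to 169 events, the EGFP pair in 138 and the CHERP pair in 120. The median signed difference was -0.00018.

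The test was a quasi-binomial comparison of long-form and short-form reads, with Benjamini-Hochberg adjustment over all listed alternative 3′ splice site events and a threshold of FDR 0.05. In whole cells 15 of 1934 events passed (0.776%), in 14 genes, against 1.14% of all 4916 events. The upstream site was used more in 9, where 0.712% of all events rose, and less in 6, where 0.427% fell. At an unadjusted p under 0.05 there were 93, or 4.81%, beside 6.08% of all. The share called among close pairs thus lay below the share over all events. Groups are called apart where their levels did not overlap. Called events were picked by a test on these same levels, so being apart adds no support. The share of all events with groups apart is not given here.

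The called events were all 19 to 45 nt apart, and 62.6% of all 1934 were 19 nt or more apart. None of the 291 events 4 to 6 nt apart and none of the 163 at 7 to 12 nt passed, while 10 and 2 of them had an unadjusted p under 0.05. At 13 to 24 nt 5 of 605 passed (1 higher, 4 lower), and at 25 to 50 nt 10 of 875 (8 higher, 2 lower). By place, 13 lay in coding sequence, 1 in a 5′ untranslated exon and 1 in a noncoding transcript. Of the 15, 9 keep the frame (60%, against 42% of all). They had a median of 389.8 reads per library against 52.75, and 11 (73.3%) had a control level between 0.1 and 0.9, against 30.3% of all 1934.

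**Figure D4:**
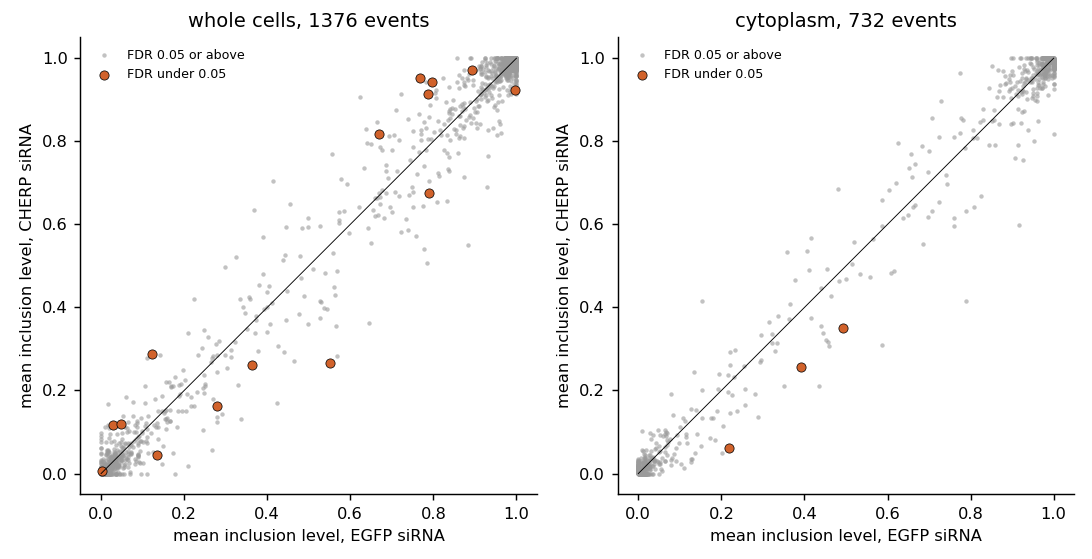
Mean inclusion level with CHERP siRNA (vertical axis) against EGFP siRNA (horizontal axis), both 0 to 1, 1 point an event averaging 20 reads or more, in whole cells (left, 1376 events) and cytoplasm (right, 732 events). Orange points have an FDR under 0.05, 15 on the left and 3 on the right, and the other events scatter on either side of the line of equal levels.

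The largest gain of the upstream site was in ZFAND6, an A20/AN1 zinc-finger protein that binds ubiquitin. Its sites lie 36 nt apart in coding sequence. The EGFP libraries had levels of 0.74 and 0.797, and the CHERP libraries 0.93 and 0.972. The groups were apart, with a difference of 0.183 in the mean level and an FDR of 9.71e-09.

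NUSAP1 encodes a spindle protein that binds microtubules. It held 2 called events whose upstream sites are 3 nt apart and which share the downstream site and its reads, so they are not independent. With the site 45 nt upstream the levels were 0.669 and 0.669 in EGFP and 0.806 and 0.829 in CHERP libraries (FDR 0.000161). With the site 42 nt upstream they were 0.132 and 0.115 against 0.286 and 0.292 (FDR 0.0282). The groups were apart in both, and the reads of the shared downstream site went from 250 and 329 to 62 and 47. The gene's abundance fell by 1.49 on the log2 scale (SE 0.1).

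CEP76 and PON2 also moved toward the upstream site. In CEP76, a centriole protein that limits centriole duplication, the sites 38 nt apart had nearly equal scores (8.45 and 8.24 bits). Its levels were 0.817 and 0.776 in EGFP and 0.953 and 0.93 in CHERP libraries, a difference of 0.145 (FDR 0.00693). In PON2, an intracellular paraoxonase, the 36 nt event had 0.764 and 0.809 against 0.915 and 0.913 (FDR 0.0493). Neither pair of groups overlapped, and PON2 lay next to the threshold. PON2 abundance was 1.71 higher on the log2 scale (SE 0.11).

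In 3 further genes a minor or a dominant form shifted by less than 0.1. DNAJC21, a co-chaperone of ribosome assembly, used its upstream site 39 nt away at 0.0305 and 0.0273 in EGFP and at 0.107 and 0.126 in CHERP libraries (FDR 0.000639). NAP1L4, a histone chaperone, went from 0.0483 and 0.048 to 0.0964 and 0.143 over 36 nt (FDR 0.00198). GPBP1, a transcription factor of GC-rich promoters, went from 0.918 and 0.866 to 0.971 and 0.971 over 45 nt (FDR 0.024). The groups were apart in all 3 genes, and the upstream form stayed the minor one in DNAJC21 and NAP1L4.

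The smallest difference was in EIF3E, a subunit of translation initiation factor eIF3. The stretch of 23 nt holds a stop codon, and the long form had 4 and 9 reads against 3147 and 4024 in the EGFP libraries and 24 and 28 against 3367 and 3453 in the CHERP ones. The levels were 0.00109 and 0.00192 against 0.00611 and 0.00694 (FDR 0.0382). EGFP and CHERP libraries did not overlap, on few reads of a form that was rare in every library.

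Use of the upstream site fell most in ARL6IP4, which encodes an SR-related nuclear protein of splicing speckles. Its 24 nt stretch is coding and 75% pyrimidine, and the scores were close (8.02 and 7.74 bits). The levels were 0.532 and 0.571 in the EGFP and 0.277 and 0.254 in the CHERP libraries, a difference of -0.286 (FDR 0.00105). Long-form reads include those on the stretch itself, so the level does not count joined acceptors. Reads spliced from this donor to the upstream acceptor were 45 and 44 in EGFP and 15 and 17 in CHERP whole-cell libraries. Those to the downstream acceptor were 64 and 54 in EGFP and 76 and 78 in CHERP libraries, the larger number in every library. A second listed event joins the same pair of acceptors to a donor 33 nt nearer the start of the gene, and it had 0.468 and 0.415 against 0.3 and 0.286 (FDR 0.585). Its long-form reads (83 and 82 in EGFP, 32 and 29 in CHERP libraries) were nearly those of the first event (85 and 84, 34 and 31). The 2 events are therefore not separate measurements.

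SLC25A39, a mitochondrial glutathione carrier, has a coding stretch of the same length and pyrimidine content. Its levels were 0.281 and 0.277 in EGFP and 0.154 and 0.172 in CHERP libraries (FDR 0.000173). UROD, the uroporphyrinogen decarboxylase of haem synthesis, has sites 19 nt apart, so the long form shifts the frame. Its levels were 0.117 and 0.152 against 0.0414 and 0.0461 (FDR 8.91e-06). In UROD the reads of the downstream form rose from 341 and 354 to 737 and 713, and the gene's abundance was 0.79 higher on the log2 scale (SE 0.097).

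The noncoding SFTA1P transcript, a surfactant-associated pseudogene, has sites 20 nt apart. Its levels were 0.38 and 0.348 in EGFP and 0.263 and 0.261 in CHERP libraries (FDR 0.000529). G3BP1, an RNA-binding protein of stress granules, has sites 31 nt apart in the 5′ untranslated sequence. Its levels were 0.767 and 0.813 against 0.659 and 0.69 (FDR 0.00297). KNSTRN, a kinetochore and spindle protein, had 0.995 and 1 against 0.953 and 0.892 at sites 43 nt apart (FDR 0.0163). In KNSTRN the short form had 1 and 0 reads in EGFP and 6 and 13 in CHERP libraries, and its abundance fell by 0.93 on the log2 scale (SE 0.1).

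The 9 events that rose had distances of 23 to 45 nt, 8 of them 36 nt or more, and 7 held a further AG between the sites. The 6 that fell had distances of 19 to 43 nt, 5 of them 31 nt or less, and 1 held a further AG. The median pyrimidine share of the stretch was 59% in those that rose and 71.3% in those that fell. Over all close pairs a further AG was found in 65.7% at 25 to 50 nt and in 16.4% at 13 to 24 nt. The pyrimidine share averaged 58.7% and 64.7% in these classes, so both traits vary with distance. The 9 include the 2 NUSAP1 events, which are not independent. With so few events these are descriptions of the called set alone.

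**Figure D5:**
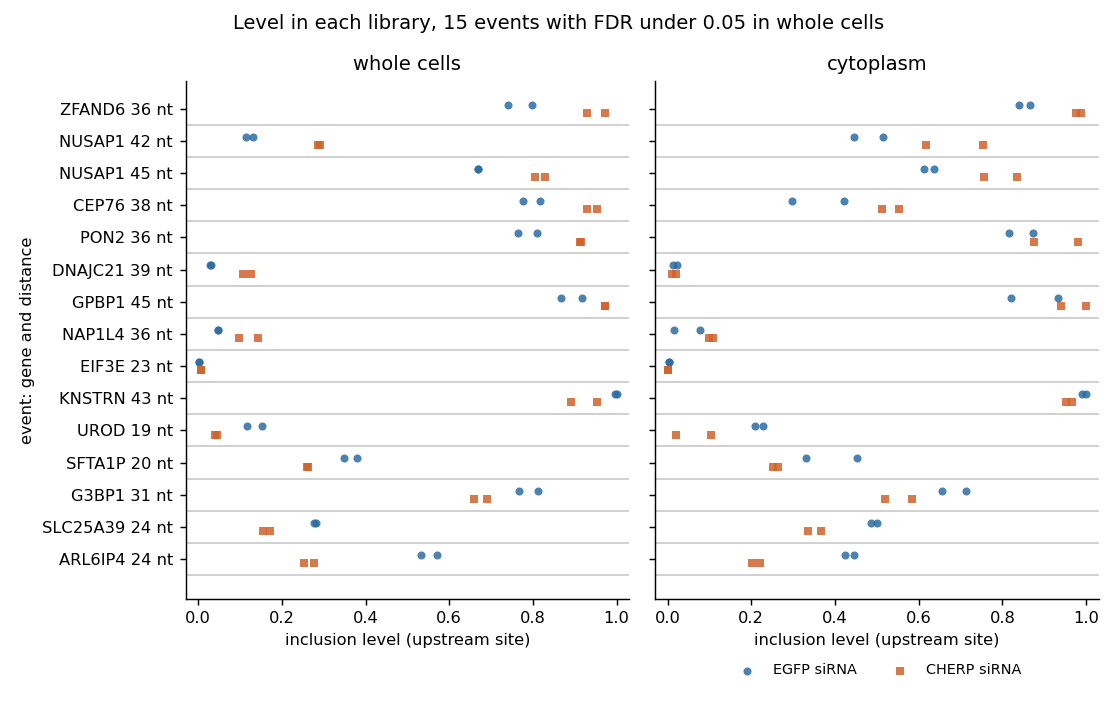
Inclusion level (horizontal axis, upstream site, 0 to 1) in each library of the 15 events called in whole cells, with EGFP siRNA as blue circles and CHERP siRNA as orange squares, in whole cells (left) and cytoplasm (right). The 2 groups are apart in whole cells in all 15, which were chosen by a test on these levels. In the cytoplasm 13 lie on the same side as in whole cells.

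The calls rest on a spread shared across events. With each event's own spread 0 events passed (12 at an unadjusted p under 0.05), and with limma on the log2 odds 0 passed (137 at that level), where the unadjusted p of the 15 ranged from 0.0068 to 0.303. Leaving out 1 library could not turn the direction of any of the 15, because their groups were apart. It gave 13 calls without the first EGFP library, 7 without the second, 6 without the first CHERP library and 5 without the second. ZFAND6 and UROD passed in all 4 of these fits, and PON2 and EIF3E in none.

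In the cytoplasm 3 of 1368 events passed (0.219%), against 0.372% of all 3498. All 3 fell, where 0.257% of all events fell and 0.114% rose. They were UROD, SLC25A39 and SFTA1P, each called in whole cells too. UROD went from 0.228 and 0.209 to 0.0197 and 0.105 (FDR 0.00825). SLC25A39 went from 0.501 and 0.487 to 0.335 and 0.367 (FDR 0.027), and SFTA1P from 0.453 and 0.332 to 0.251 and 0.264 (FDR 0.027). The groups were apart in all 3. Leaving out 1 cytoplasmic library kept at most 1 of these calls, SFTA1P without the second EGFP library, and the differences ran from -0.199 to -0.113 for UROD, from -0.159 to -0.127 for SLC25A39 and from -0.195 to -0.0742 for SFTA1P. At an unadjusted p under 0.05 there were 48 events, or 3.51%.

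All 15 events called in whole cells were listed in the cytoplasm, in separate libraries, and 13 differed in the same direction there. The share of all events with the same direction in both fractions is not given here. ARL6IP4 had 0.446 and 0.423 against 0.201 and 0.222 (FDR 0.0763), and ZFAND6 had 0.866 and 0.839 against 0.976 and 0.987 (FDR 0.134). G3BP1 had 0.655 and 0.713 against 0.584 and 0.519 (FDR 0.818). DNAJC21 and EIF3E were the exceptions. DNAJC21 had 0.0121 and 0.0232 against 0.0117 and 0.0213, with 1 or 2 long-form reads in every library. EIF3E had 1 long-form read in each EGFP library and 0 of 136 and 0 of 224 reads in the CHERP ones.

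A test of the siRNA by fraction interaction called 0 of 1235 events, and 0% of all 3155 shared events. At an unadjusted p under 0.05 there were 36, limma on the log2 odds also called 0 with 75 at that level, and the smallest interaction p among the 15 events was 0.0793. A difference in the siRNA effect between the fractions was therefore not detected with 2 libraries a group, which does not show that there is none.

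The 2 fractions were compared in EGFP cells. Of the 1235 shared events 25 passed (2.02%), against 5.1% of all 3155. In the cytoplasm the upstream site was used more in 11, beside 0.856% of all, and less in 14, beside 4.25% of all. The median difference was -0.0036, and -0.0074 over all events. The effective lengths in the deposited tables show that the fractions were read at different lengths, so fraction and read length cannot be told apart. Whole-cell RNA also holds nuclear RNA, and unspliced reads on the stretch can count for the long form. Their part in these differences was not tested.

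Of these 25 events 3 were also called for CHERP siRNA in whole cells, where 15 of the 1235 shared events were called. The part of read depth in this overlap was not tested. SLC25A39 went from 0.281 and 0.277 in whole cells to 0.501 and 0.487 in the cytoplasm (FDR 5e-09). CEP76 went from 0.817 and 0.776 to 0.421 and 0.297 (FDR 1.48e-07), and the 42 nt event of NUSAP1 from 0.132 and 0.115 to 0.446 and 0.516 (FDR 2.74e-24). The libraries of the 2 fractions did not overlap in any of the 3. Chosen after their values were seen, CHD4, a nucleosome remodeller, went from 0.673 and 0.653 to 0.188 and 0.275 at its 39 nt event. NR1H2, a liver X receptor, went from 0.134 and 0.106 to 0.92 and 0.908 at its 42 nt event, with 6 reads in the shallowest library. In 12 of the 25 a library had under 20 reads. Leaving out 1 EGFP library gave 7 and 4 calls without the first and second whole-cell one and 9 and 10 without the first and second cytoplasmic one.

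Genes of splice site recognition held few of these events. Of 60 genes on that list (U2AF, SF3 and SR proteins, hnRNPs and U2-associated factors) 12 had a member event, with 17 events tested in whole cells, 0 called and 3 at an unadjusted p under 0.05. Over all close pairs 0.776% were called and 4.81% had such a p, so a list of this size would hold no call at the common share. The median difference was 0.0031, against 0 over all close pairs. RBM39, an SR-like factor that binds U2AF, had 0.408 and 0.353 against 0.499 and 0.411 at 18 nt (FDR 0.553). DDX42, a helicase bound to SF3B, had 0.0275 and 0.0788 against 0.117 and 0.162 at 27 nt (FDR 0.425). HNRNPC, whose protein competes with U2AF, used an unannotated site 22 nt upstream at 0.00389 and 0.00414 against 0.0174 and 0.0153 (FDR 0.623). These are the 3 events with an unadjusted p under 0.05, so groups that are apart add no support. EGFP and CHERP libraries did not overlap in any of the 3, in RBM39 by the narrow step from 0.408 to 0.411. Groups were apart in other events of the list too, such as those of TRA2B and SRSF5.

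Most other events on the list lay near one end. SRSF5, an SR protein, spliced to its upstream site 9 nt away at 0.997 to 0.998 in all whole-cell libraries. The 9 and 21 nt events of PTBP1, the polypyrimidine tract binding protein, lay between 0.961 and 1, and the SRSF11 event between 0.0158 and 0.0313. TRA2B, RBM39 at 24 and 35 nt and HNRNPH1 used the upstream site at under 0.04. ACIN1, an exon junction component, had 0.678 and 0.82 against 0.662 and 0.716, with overlapping groups. PTBP2, the neuronal paralog of PTBP1, had 0.358 and 0.24 against 0.475 and 0.521 at its 15 nt event. The groups were apart by a difference of 0.199, on a mean of 21.5 reads and with an FDR of 0.872. The CHERP event, with a mean of 22.25 reads, had 0.0335 and 0.108 against 0 and 0 on 1 and 8 reads (FDR 0.872).

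The other lists were also too short for their counts of calls to say anything about them. In whole cells 34 events were tested in RNA export and decay genes, 34 in cell cycle genes, 27 in DNA replication and repair genes, 42 in chromatin genes, 52 in ubiquitin genes, 34 in translation genes and 30 in membrane traffic genes. Each had 0 called, with 0 to 3 at an unadjusted p under 0.05, and none of their events passed in the cytoplasm. The median absolute difference among events with at least 20 reads ran from 0.000869 in translation genes to 0.0176 in chromatin genes, against 0.0134 over all close pairs. At the 0.776% called over all close pairs, lists of this size would hold about none. None of the 14 genes with a called event stands on any list, and the lists leave out NUSAP1 and KNSTRN of the spindle and EIF3E of translation.

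Gene abundance was set beside the splicing values from the reads of cassette exon and alternative 5′ splice site events. In whole cells 5 of the 14 genes with a called event passed limma's test, 2 higher and 3 lower, where 36.7% of 9513 genes passed, 18.9% higher and 17.8% lower. In the cytoplasm 8 of 14 passed, 4 higher and 4 lower, where 48.2% of 7101 passed, 25.6% higher and 22.5% lower. PON2 and UROD were higher in both fractions (in the cytoplasm by 2.06 and 0.88 on the log2 scale), and NUSAP1 and KNSTRN lower in both. For ZFAND6 the whole-cell value was 0.03 (SE 0.11, FDR 0.83) and for CEP76 0.13 (SE 0.12, FDR 0.434). In these bulk libraries fewer cells of a kind and less RNA per cell cannot be told apart. The median over the 14 genes was -0.09, against 0.01 over all genes.

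Retained intron events were listed at the same intron for ARL6IP4 alone among the called events, 2 in each fraction. For the intron that ends at the upstream acceptor, retention was 0.351 and 0.318 in EGFP and 0.384 and 0.364 in CHERP whole-cell libraries, and 0.1 and 0.0504 against 0.157 and 0.105 in the cytoplasm. For the intron that ends at the downstream acceptor it was 0.438 and 0.461 against 0.203 and 0.193 in whole cells, and 0.199 and 0.166 against 0.0854 and 0.0788 in the cytoplasm. The first was somewhat higher with CHERP siRNA in both fractions, and the second lower in both. In the cytoplasm the first rested on 10 and 5 retained reads in EGFP and 7 and 5 in CHERP libraries. The second intron also holds the stretch whose reads count for the long form. The spliced reads of the second, 64 and 54 against 76 and 78 in whole cells, are as many as the short-form reads of the acceptor event, so the values are not independent. The part of retention in the acceptor change was not tested.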

How the data were processed

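RNA-seq was read from 8 libraries in 4 groups. Per the labels and the study's methods, the authors mapped reads to hg19 with STAR 2.5.2b, used GENCODE 19 and RSEM 1.2.25, and counted the reads of each splice form with rMATS. The deposited tables hold, per event, whole numbers of junction and on-target reads of either form for 2 libraries joined in 1 cell, without replicate numbers, and the effective length of each form. Their p-values, FDRs and level differences (20 columns of per-library levels among them) were not used, nor were mutually exclusive exons or the authors' gene table.

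Inclusion level was (long-form reads / effective length) over the sum for both forms. Levels were described from a mean of 20 reads per library. Reads were tested with a quasi-binomial model whose Pearson dispersion was moderated on depth by limma 3.58.1 (R 4.3.3, squeezeVar, floor 1). The prior degrees of freedom were infinite, so dispersion (2.10 to 4.25 in whole cells, 1.18 to 3.29 in the cytoplasm) was set by depth alone. The fraction test used the effective lengths as an offset. p-values were adjusted over all listed alternative 3′ splice site events. Gene abundance was limma on log2(length-corrected reads + 0.01) for genes with a mean of 20 reads, scaled by median ratios, so small values are understated. Sequences came from GRCh37 and places from GENCODE 44 lifted to it, and some sequences are not reported here. Functions were tested on simulated data.

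Named events were those with FDR under 0.05 (at most 25 a fraction), the 6 deepest with control levels of 0.2 to 0.8, and those of the splice site recognition list with a mean of 20 reads. The events, the lists and the tests were chosen with earlier results of these data known. p-values of splice events set a difference against a spread shared by events of like depth, not that of an event's own libraries. The shared spread came from groups of 2 libraries.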

Additional observations from a re-analysis of the deposited data

How the results depend on the processing

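The number of called events depended on how the spread was estimated. With each event's own dispersion 0 events passed in whole cells, the cytoplasm and between fractions (12, 2 and 12 at an unadjusted p under 0.05), and with limma on the log2 odds 0 as well (137, 100 and 176). In the cytoplasm 7 passed among events averaging 50 reads or more and 7 with a dispersion without a trend. Leaving out 1 library gave 5 to 13 calls in whole cells, 0 to 1 in the cytoplasm and 4 to 10 between fractions, and the interaction stayed at 0 under every alternative run. For the abundance of genes with a called event the range without 1 library was 4 to 8 genes in whole cells. The median control level was 0.659 from an average of 10 reads, 0.709 from 50 and 0.721 without length correction in whole cells, and 0.687, 0.726 and 0.742 in the cytoplasm, where leaving out 1 library gave 0.684 to 0.699. The causes were not tested. For the named events, none of the 197 alternative values could change direction. Only leaving out a library alters the difference, and the groups were apart in every called event. No paired analysis was possible because the 2 libraries of a group share a cell without replicate numbers. Depth limits the rest: 18.9% of whole-cell and 30.1% of cytoplasmic events averaged under 10 reads.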

Other observations

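The long-form reads of the 2 NUSAP1 events, whose upstream acceptors lie 3 nt apart, were divided differently in the 2 fractions. In whole cells the 42 nt event held 6.87% and 5.93% of them in the EGFP libraries. In the CHERP libraries it held 8.65% and 7.69%. The cytoplasmic shares were 33.2% and 37.2% in EGFP and 33.5% and 37.1% in CHERP libraries. These counts hold on-target reads beside junction reads, so how often either acceptor was joined was not measured. The siRNA groups were apart in whole cells and overlapped in the cytoplasm, and no test was run. The fraction libraries were read at different lengths, and the part of read length in this difference was not tested.

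In SERBP1 the 45 nt event, which lies in another intron than the 18 nt event, had levels of 0.185 and 0.188 in EGFP whole cells and 0.377 and 0.348 in the EGFP cytoplasm (FDR 9.29e-09). With CHERP siRNA the values were 0.215 and 0.21, and 0.391 and 0.352. This event was chosen after its values were seen.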
